A study of Homo sapiens with 12 samples.

Results

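The genes described here belong to 3 small families whose products hold back growth or the cell cycle under stress: the GADD45 genes (GADD45A, GADD45B and GADD45G), the polo-like kinases PLK2 and PLK3, and the BTG/TOB genes (BTG1, BTG2, BTG3 and TOB1). The 9 genes were taken by name, and each was read from the array row that the probe table pairs with its symbol alone, the brightest by mean over 12 arrays where a gene had several. Of the 9 genes, 7 had such a row, among 14232 genes measured in the same way: GADD45A, GADD45B, GADD45G, PLK2, PLK3, BTG3 and TOB1. BTG1 shares its row with the noncoding gene LINC01619, and BTG2 is unnamed in the probe table, so that no value is given for either. A second row that lists BTG3 together with CXADR and CXADRP2 was not used.

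The arrays were Affymetrix exon arrays of RNA from A549, a human lung adenocarcinoma cell line. Cells were seeded in multiwell plates in RPMI1640 with serum and L-glutamine, and cisplatin, a platinum drug that crosslinks DNA, was added on the next day at its IC10, which the study calls the no-observed-effect level (NOEL). The groups were cisplatin-treated cells at 24 h, untreated cells at 24 h, cisplatin-treated cells at 48 h and untreated cells at 48 h, with 3 arrays each, and the comparison asks which transcripts differ at a dose that leaves most cells viable. All groups share the 1 cell line, and the untreated wells are not described as given a vehicle. The study's methods give 3 independent experiments, so that the 6 arrays of a treatment may not be 6 independent units, and p-values measure the spread between these arrays. The number of arrays limits the precision.

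GADD45 proteins are small stress sensors without enzyme activity, which bind the CDK1-cyclin B complex, PCNA and the kinase MAP3K4 and so link damage to a G2/M delay and to p38 and JNK signalling. PLK2 and PLK3 are stress-responsive relatives of the mitotic kinase PLK1. BTG and TOB proteins recruit the CCR4-NOT deadenylase to shorten poly(A) tails and restrain proliferation. GADD45A, PLK2, PLK3 and BTG2 are long known to be induced after DNA damage.

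The study itself picked PLK3 and BTG2 from these arrays as over-expressed genes, so the direction of PLK3 is not independent evidence here. Values are log2 signals normalized by robust multi-array average (RMA), on which a difference of 1 is 2-fold, and differences are cisplatin minus untreated from limma with time as a term unless a time is named. The spread of the deposited values, over all transcript clusters, was 2.14 to 14.31. One array, untreated 24 h replicate 3, stood apart: its mean Pearson correlation with the other 11 arrays was 0.972, against 0.987 to 0.990 for the others, and a line through its values on the mean of the others had a slope of 0.879. Several differences over both times and at 24 h are therefore also given without it. Of 5 epithelial markers, with array values from 6.64 to 13.76, the keratin genes KRT8 and KRT18 averaged 13.62 and 11.44 in cisplatin-treated cells and 13.55 and 11.45 in untreated cells, while PTPRC, the CD45 antigen of leukocytes, averaged 3.76 in cisplatin-treated cells and 3.83 in untreated cells. Over all arrays the 6 markers of leukocytes, endothelium and fibroblasts ran from 3.63 to 8.69, the top value being that of the collagen gene COL1A1, and 0 of them differed at an unadjusted p under 0.05. EPCAM, an epithelial marker, averaged 7.17 in cisplatin-treated cells and 7.31 in untreated cells. KRT19, another keratin, was the 1 epithelial marker at an unadjusted p under 0.05, with 10.17 in cisplatin-treated cells and 9.91 in untreated cells (difference 0.26, adjusted p = 0.991), and its part in the members' differences was not tested.

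For PLK3, which gave the clearest separation of treated from untreated arrays, and its paralog PLK2, the sequence around the annotated start is shown so that both damage-responsive kinases can be set side by side. Each window runs from 250 bases before the start to 50 after it (RefSeq, GRCh38.p14, 5′ to 3′ on the strand of the gene). PLK3 lies on the plus strand, with the window at chr1:44800127-44800426, and PLK2 on the minus strand, with the window at chr5:58460037-58460336. Capitals mark matches to any of 5 motifs searched on both strands: the TATA box as TATAA, the CAAT box as CCAAT, the core of a cyclic AMP response element as TGACG, an E-box as CACGTG and the CArG box of serum response factor.
PLK3: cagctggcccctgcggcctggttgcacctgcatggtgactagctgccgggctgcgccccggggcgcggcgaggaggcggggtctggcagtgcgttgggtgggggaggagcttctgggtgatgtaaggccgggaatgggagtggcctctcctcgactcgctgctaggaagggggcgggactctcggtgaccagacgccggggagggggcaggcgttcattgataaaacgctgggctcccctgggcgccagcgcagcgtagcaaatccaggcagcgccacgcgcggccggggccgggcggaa
PLK2: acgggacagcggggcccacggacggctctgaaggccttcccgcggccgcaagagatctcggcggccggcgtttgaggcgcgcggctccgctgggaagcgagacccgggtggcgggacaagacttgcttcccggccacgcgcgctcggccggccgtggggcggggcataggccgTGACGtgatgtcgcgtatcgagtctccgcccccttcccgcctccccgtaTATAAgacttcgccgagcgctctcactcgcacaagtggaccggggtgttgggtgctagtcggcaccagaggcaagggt
The PLK3 window held no match to the 5 motifs. The PLK2 window held TATAA at -28 and TGACG at -77, counted from the start to the first base of the match. Among 35116 promoter windows of this length, 20.4% held TATAA and 24.6% TGACG; a match here describes the letters and not a bound site.

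Of the 7 measured members, 0 passed an adjusted p of 0.05 in limma for cisplatin against untreated cells, in either direction. The background was 0.0281% of all genes (4 of 14232). BTG2 has no value here, but its log fold-change in the study's own list is larger in size than that of PLK3. The differences of 6 of the 7 members were positive, with a median of 0.22, where the median over all 14232 genes was 0.01 and 53.8% of them were positive. At an unadjusted p under 0.05, 3 members were higher with cisplatin (PLK3, GADD45A and TOB1) and 0 lower, against 1.73% of all genes that were higher. At the study's own limit, an unadjusted p under 0.005, only PLK3 of the 7 members was higher, against 0.415% of all genes. With untreated 24 h replicate 3 left out, the members had a median of 0.18.

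**Figure D1:**
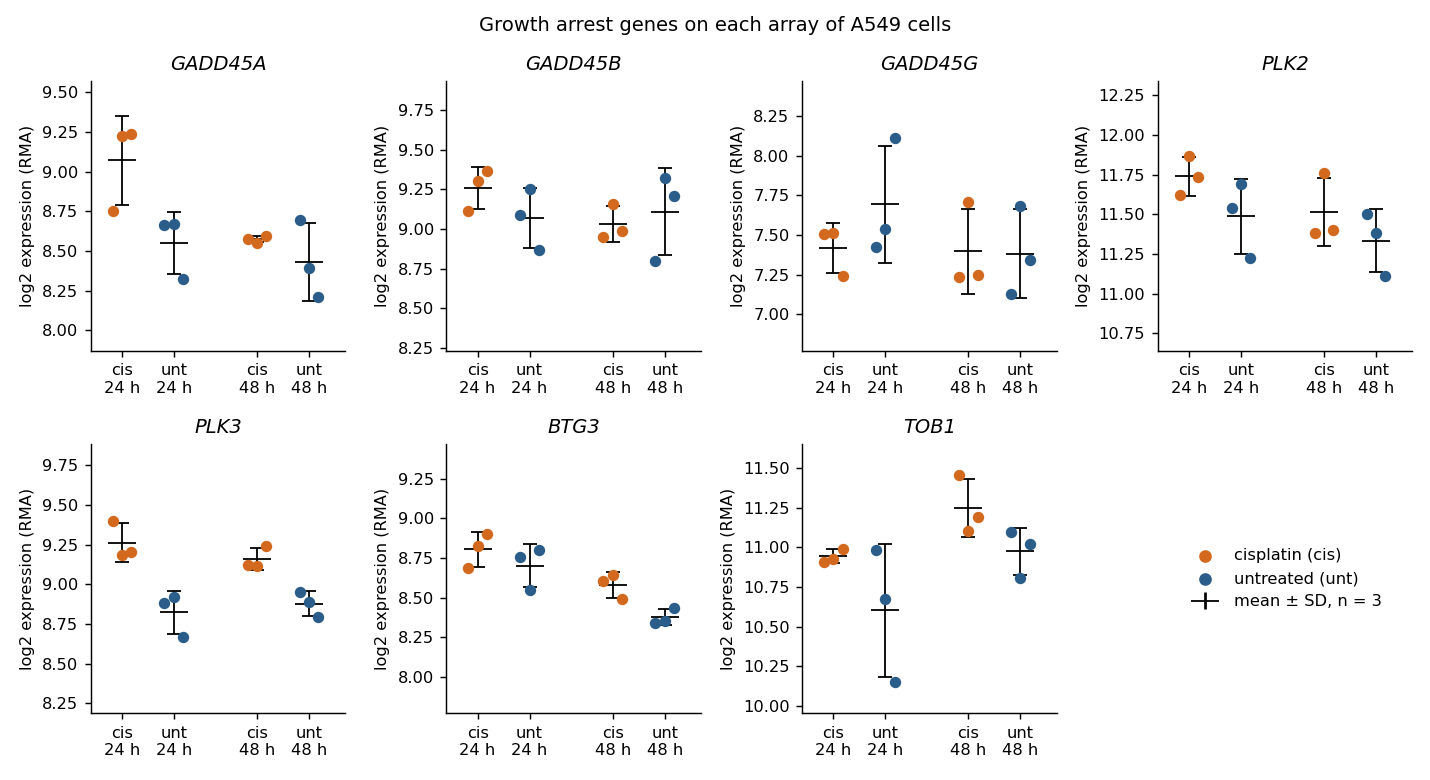
Log2 expression (RMA, vertical axis, spanning the same range in each panel) of the 7 measured genes on each array, with cisplatin-treated cells (orange) left of untreated cells (blue) at 24 h and 48 h; horizontal bars are the mean and whiskers the SD of 3 arrays. The cisplatin arrays of PLK3, 9.11 to 9.40, all sit above its untreated arrays, 8.67 to 8.95, while the groups of the other genes overlap over the 12 arrays.

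PLK3, a kinase activated by DNA damage and other stress that acts on CDC25C, was higher on each cisplatin array than on any untreated one. Its level (transcript cluster 2334191) was 9.40, 9.18 and 9.20 on the cisplatin arrays and 8.88, 8.92 and 8.67 on the untreated arrays at 24 h. At 48 h it was 9.12, 9.11 and 9.24 on the cisplatin arrays and 8.95, 8.89 and 8.79 on the untreated arrays. Thus all 6 cisplatin arrays lay above all 6 untreated arrays, which was the case for no other member and for 0.218% of all genes. Over both times PLK3 averaged 9.21 ± 0.11 in cisplatin-treated cells and 8.85 ± 0.10 in untreated cells (SD, n = 6 each), a difference of 0.36 (SE 0.08, 95% interval 0.20 to 0.53), or 1.28-fold. By unadjusted p it ranked 22 among 14232 genes, at an unadjusted p = 0.000315 and an adjusted p of 0.204 in limma. The difference was 0.32 without untreated 24 h replicate 3, where the adjusted p was 0.252. At 24 h alone the difference was 0.44, and 0.36 without that array. With arrays weighted by their quality the adjusted p was 0.00866, so the call of PLK3 turns on that setting. The same weights called 53 of all genes in place of 4.

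PLK2, a centriole-associated kinase that is also induced by serum, had levels (transcript cluster 2858023) of 11.62, 11.87 and 11.73 on the cisplatin arrays and 11.54, 11.69 and 11.23 on the untreated arrays at 24 h. At 48 h it had 11.38, 11.76 and 11.40 on the cisplatin arrays and 11.50, 11.38 and 11.11 on the untreated arrays. The groups overlapped at both times, since replicate 2 of the untreated cells at 24 h and replicate 1 at 48 h were above the lowest cisplatin array. The difference over both times was 0.22 (95% interval -0.00306 to 0.44, unadjusted p = 0.0529), and it was 0.16 without untreated 24 h replicate 3. At 24 h alone the difference was 0.25, and 0.12 without that array. The paralogs that are not stress genes in this sense, PLK1 and PLK4, which drive mitosis and centriole duplication, had differences of 0.04 (95% interval -0.14 to 0.21) and -0.03 (95% interval -0.28 to 0.22), with 0 of both called.

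GADD45A, the founding GADD45 gene, named for growth arrest and DNA damage, showed the largest difference of the 7 genes at 24 h. Its level (transcript cluster 2341083) was 8.75, 9.23 and 9.24 on the cisplatin arrays and 8.66, 8.67 and 8.33 on the untreated arrays at 24 h. At 48 h it was 8.57, 8.55 and 8.59 on the cisplatin arrays and 8.69, 8.39 and 8.21 on the untreated arrays. At 24 h the cisplatin arrays were all above the untreated arrays, although replicate 1 did so narrowly, and at 48 h the cisplatin arrays lay inside the range of the untreated ones. Over both times GADD45A averaged 8.82 in cisplatin-treated cells and 8.49 in untreated cells, and without untreated 24 h replicate 3 the difference was 0.26. The difference at 24 h was 0.52 (95% interval 0.18 to 0.86), or 1.43-fold, with an unadjusted p of 0.00558 and an adjusted p of 0.912, and without untreated 24 h replicate 3 it was 0.41. At 48 h the difference was 0.14 (95% interval -0.20 to 0.48), and it was 0.0315 without untreated 48 h replicate 3, 0.27 without untreated 48 h replicate 1 and 0.33 with array weights. The effect at 48 h minus that at 24 h was -0.38 (SE 0.22, 95% interval -0.86 to 0.10, unadjusted p = 0.116), so the effects at the 2 times were not shown to differ. Leaving out 1 array gave values from -0.54 to -0.24, and array weights gave -0.16.

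GADD45B, which is known for its induction by NF-kappaB and TGF-beta, differed by 0.06 over both times (95% interval -0.17 to 0.28). Its levels (transcript cluster 3816509) at 24 h were 9.11, 9.30 and 9.37 with cisplatin and 9.09, 9.25 and 8.87 without. At 48 h they were 8.95, 9.16 and 8.99 with cisplatin and 8.80, 9.32 and 9.21 without. The groups overlapped at both times, and the sign of the difference was not the same at 24 h (0.19) and 48 h (-0.08). Without untreated 24 h replicate 3 the difference was 0.0904 at 24 h and -0.0025 over both times.

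GADD45G, the third of the family, was the single member with a negative difference over both times, -0.13 (95% interval -0.42 to 0.16). Its levels (transcript cluster 3178679) at 24 h were 7.51, 7.51 and 7.24 on the cisplatin arrays and 7.43, 7.54 and 8.11 on the untreated arrays. At 48 h they were 7.24, 7.71 and 7.25 on the cisplatin arrays and 7.13, 7.68 and 7.34 on the untreated arrays. The value of 8.11 belongs to untreated 24 h replicate 3 and is the highest of the 12. Without that array the difference was -0.02, and at 24 h it was -0.06 in place of -0.27.

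TOB1 is a BTG/TOB protein that binds poly(A)-binding protein and the CNOT7 and CNOT8 deadenylases. It averaged 11.25 on the cisplatin arrays and 10.98 on the untreated arrays at 48 h, against 10.94 and 10.60 at 24 h. The difference at 48 h did not reach an unadjusted p under 0.05 in limma. Its levels (transcript cluster 3762473) were 10.91, 10.93 and 10.99 on the cisplatin arrays and 10.98, 10.67 and 10.15 on the untreated arrays at 24 h. At 48 h they were 11.45, 11.10 and 11.19 on the cisplatin arrays and 11.10, 10.81 and 11.02 on the untreated arrays. The groups overlapped at 24 h, and at 48 h the cisplatin arrays were above the untreated ones, the lowest of them by less than the rounding of the values printed here. The difference over both times was 0.31 (95% interval 0.05 to 0.56, unadjusted p = 0.0210, adjusted p = 0.991), or 1.24-fold. The lowest value of TOB1 is on untreated 24 h replicate 3, and without this array the difference was 0.20 over both times (unadjusted p = 0.0387) and 0.11 at 24 h in place of 0.34.

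BTG3, an antiproliferative protein that restrains E2F1, differed by 0.15 over both times (95% interval -0.01 to 0.31, unadjusted p = 0.0579). Its levels (transcript cluster 3926080) at 24 h were 8.69, 8.83 and 8.90 on the cisplatin arrays and 8.76, 8.55 and 8.80 on the untreated arrays. At 48 h they were 8.61, 8.65 and 8.49 on the cisplatin arrays and 8.34, 8.36 and 8.44 on the untreated arrays. The groups overlapped at 24 h and were apart at 48 h, where the difference was 0.20 (95% interval -0.03 to 0.44). Of the other BTG/TOB genes, TOB2 differed by 0.06 (95% interval -0.09 to 0.20) and BTG4, a gene of oocytes that lay near 4.20 in cisplatin-treated cells and 4.36 in untreated cells, by -0.16 (95% interval -0.34 to 0.03).

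**Figure D2:**
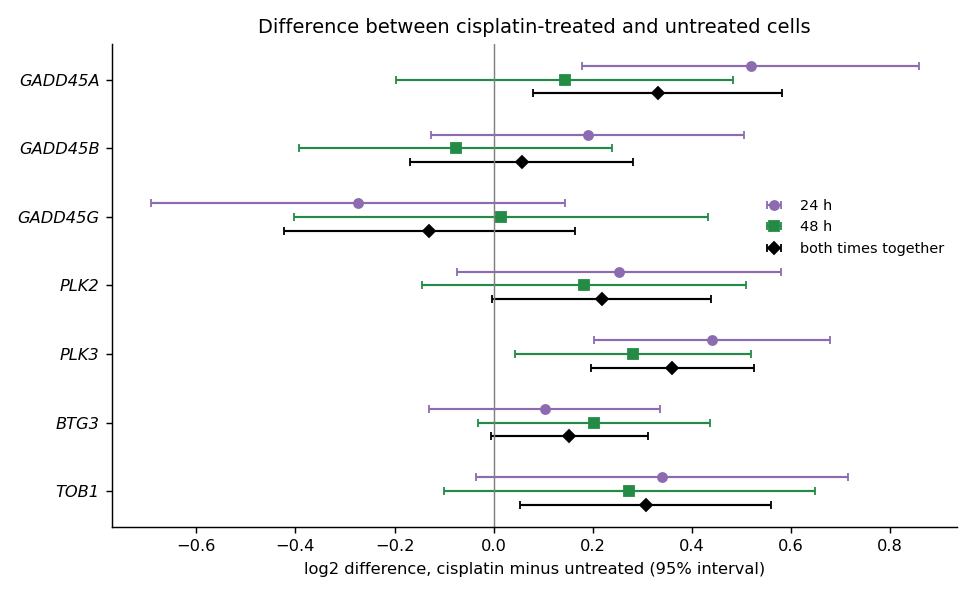
Log2 difference of cisplatin minus untreated cells (horizontal axis) with 95% intervals from limma, for 7 genes at 24 h (circles), at 48 h (squares) and over both times (diamonds). The intervals of PLK3 lie above 0 at both times, that of GADD45A lies above 0 at 24 h (0.18 to 0.86) and spans 0 at 48 h, and those of GADD45B and GADD45G span 0 throughout.

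At the single times, 0 of 7 members passed an adjusted p of 0.05 in limma at 24 h (background 0.00703% of all genes) and 0 of 7 at 48 h (background 0%). The median of the members was 0.25 at 24 h and 0.18 at 48 h, against 0.03 and -0.02 over all genes. At each time 6 of 7 differences were positive, where 57.9% of all genes were positive at 24 h and 42.2% at 48 h. With untreated 24 h replicate 3 left out, the median at 24 h was 0.12, and with untreated 48 h replicate 3 left out, the median at 48 h was 0.07. At an unadjusted p under 0.05, GADD45A and PLK3 were higher with cisplatin at 24 h, against 1.9% of all genes, and PLK3 alone at 48 h (difference 0.28, unadjusted p = 0.0240), against 0.632%. All 3 cisplatin arrays exceeded all 3 untreated arrays for 2 members at 24 h (GADD45A and PLK3), against 5.94% of genes, and for 3 members at 48 h (PLK3, BTG3 and TOB1), against 3.58%. The difference between the effects at 48 h and 24 h passed the adjusted limit for 0 members (background 0%), also 0 at an unadjusted p under 0.05, and ranged between -0.38 for GADD45A and 0.29 for GADD45G, the second of which was 0.0783 without untreated 24 h replicate 3.

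Levels were also compared between 48 h and 24 h. In limma, 0 of 7 members passed an adjusted p of 0.05 in cisplatin-treated cells (background 0%), 0 in untreated cells (background 0%) and 0 with both treatments in 1 model (background 0.134%). In that model, whose time term was examined after the values had been seen, 6 of 7 members were lower at 48 h, with a median of -0.17. All genes had a median of 0.02, and 56.8% of them were higher at 48 h. BTG3 averaged 8.48 ± 0.13 at 48 h and 8.75 ± 0.12 at 24 h (SD, n = 6 each), a difference of -0.27 (95% interval -0.43 to -0.12, unadjusted p = 0.00221, adjusted p = 0.214). GADD45A had a difference of -0.31 (unadjusted p = 0.0191), and within cisplatin-treated cells of -0.50 (95% interval -0.84 to -0.16, unadjusted p = 0.00725), against -0.12 within untreated cells (95% interval -0.46 to 0.22). The value in untreated cells ran from -0.25 without untreated 48 h replicate 1 to -0.0105 without untreated 48 h replicate 3, and was -0.41 with array weights (adjusted p = 0.0428). Those weights called 529 of all genes in untreated cells in place of 0. TOB1 had the single positive difference, 0.34 (95% interval 0.09 to 0.59, unadjusted p = 0.0121), and without untreated 24 h replicate 3 this was 0.24. Within cisplatin-treated cells GADD45A alone was lower at an unadjusted p under 0.05, against 0.668% of all genes. Within untreated cells BTG3 alone was lower (-0.32), against 0.963% of all genes. With both treatments in the model, at an unadjusted p under 0.05, 1 member was higher at 48 h, against 4.86% of all genes, and 2 were lower, against 1.26%. No member had all 6 arrays at 48 h above or below all 6 at 24 h, where 0.836% and 0.155% of all genes did.

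**Figure D3:**
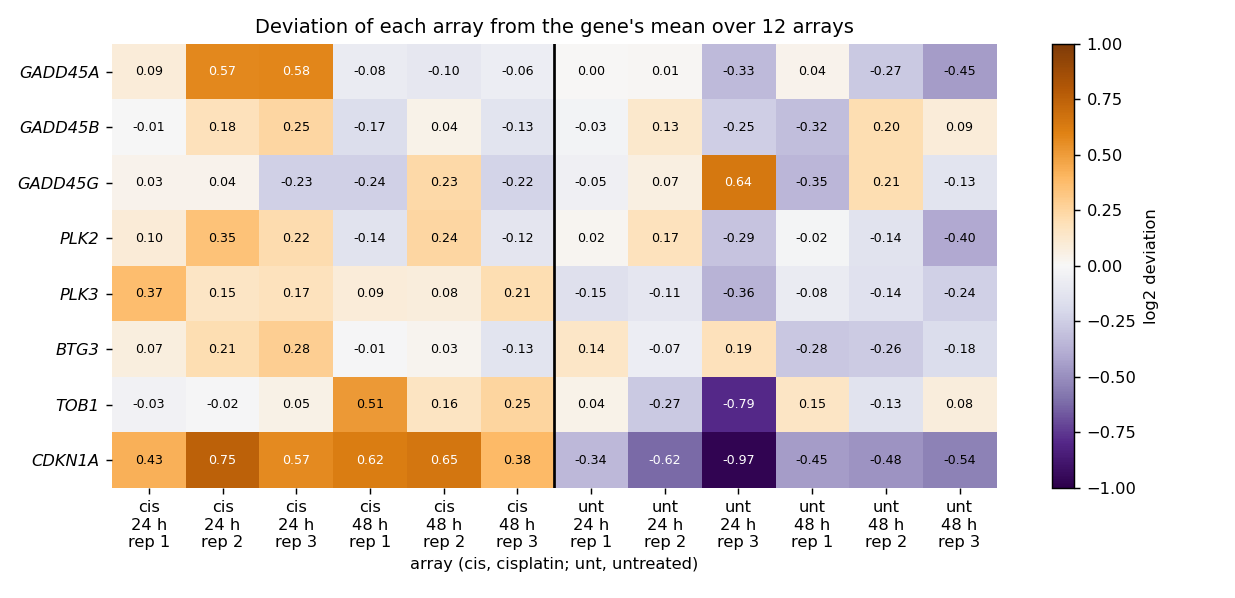
Deviation of each array (columns, with cisplatin left of untreated) from the mean over 12 arrays on the log2 scale (colour and printed value), for 7 genes and CDKN1A. PLK3 and CDKN1A are above their mean on all 6 cisplatin arrays and below it on all 6 untreated arrays, while GADD45A is well above its mean on replicates 2 and 3 of cisplatin at 24 h (0.57 and 0.58), and TOB1 is lowest on untreated 24 h replicate 3 (-0.79).

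CDKN1A, which codes for the cell cycle inhibitor p21 and is strongly induced by DNA damage, gives a scale for these differences, although the study picked it from the same arrays. It averaged 10.93 ± 0.14 in cisplatin-treated cells and 9.80 ± 0.22 in untreated cells (SD, n = 6 each), a rise of 1.14 or 2.20-fold (adjusted p = 0.000254, limma). The difference of PLK3 was smaller, at 1.28-fold. Across the 12 arrays, which share the 4 groups so that group differences enter each correlation, PLK3 followed CDKN1A with a Pearson r of 0.876, GADD45A followed PLK2 with 0.823, and GADD45G ran against TOB1 with -0.814. GADD45G is highest and TOB1 lowest on untreated 24 h replicate 3.

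Genes whose values over the 12 arrays were most like those of a member are given as a description. For PLK3 they were POLH, the translesion polymerase eta (Pearson r 0.940, Spearman rho 0.909), CYFIP2 (0.908 and 0.923) and XPC, a damage sensor of nucleotide excision repair (0.888 and 0.818). For PLK2 they were DUSP14, a dual-specificity phosphatase (0.940 and 0.972), DENND3 (0.888 and 0.881) and TFPI2, a secreted protease inhibitor (0.883 and 0.846). For GADD45A they were SPAG1 (0.899 and 0.888), PEA15 (0.882 and 0.888) and TMEM68 (0.876 and 0.755). POLH, CYFIP2 and XPC were also picked by the study from these arrays.

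The partners through which these proteins act were examined as lists of genes. Of the genes for the CCR4-NOT deadenylase and poly(A) binding, 8 of 13 were measured, all of them CNOT genes, with a median difference of 0.04. CNOT1, CNOT3, CNOT10 and the poly(A)-binding genes PABPC1 and PABPC4 were not measured. CNOT6L had the smallest p, at -0.20 (95% interval -0.42 to 0.02), followed by CNOT4, CNOT2 and CNOT7 at 0.06, 0.05 and 0.06. Of the kinases downstream of GADD45 proteins, 7 of 11 were measured, with a median of 0.01. MAP2K4, MAP2K7, MAPK12 and MAPK14 were not among them. MAPK13, a p38 kinase, was at -0.15 and MAPK11 at -0.11, with MAPK9 at 0.10 and MAP2K3 at 0.05. Of the G2/M partners, 8 of 9 were measured, with a median of 0.08, and CDC25C, the phosphatase that activates CDK1 and a substrate of PLK3, was at 0.23, CDC25B at 0.11, CCNB2 at 0.12 and CDK1 at 0.14. In these 3 lists 0 genes passed the adjusted limit and 0 an unadjusted p under 0.05 over both times. At 24 h CDC25C was higher at an unadjusted p under 0.05, against 1.9% of all genes. Its untreated arrays at 24 h ran from 7.32 to 8.04, with a median of 7.96, and its cisplatin arrays from 8.20 to 8.23.

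Among the genes that regulate members or respond quickly to stress, 21 of 22 immediate-early genes had a median of 0.01, with NR4A1 at -0.18, FOS at -0.09, IER5 at 0.09 and MYC at -0.06, and 5 of 10 transcription factors that act on members had a median of -0.01, with FOXO4 at -0.13, RELA at 0.05, E2F1 at -0.06 and NFKB1 at -0.01. In both lists 0 genes had an unadjusted p under 0.05. The other arrest and feedback genes induced by DNA damage gave a median of 0.49 over 11 of 12 measured, with 10 higher at an unadjusted p under 0.05 and 1, CDKN1A, at an adjusted p under 0.05. SESN1, a stress-induced regulator of TOR signalling, was at 0.73, MDM2, a ubiquitin ligase, at 0.59, and PHLDA3, an inhibitor of AKT, at 0.52. The study picked CDKN1A, SESN1, MDM2 and PHLDA3, among others of this list, from the same arrays, so that their direction is not independent evidence. RPRM, an inhibitor of CDK1-cyclin B, was the exception at -0.04. Of the families of the members, 4 of 5 further genes were measured, with a median of 0.00 and 0 called.

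**Figure D4:**
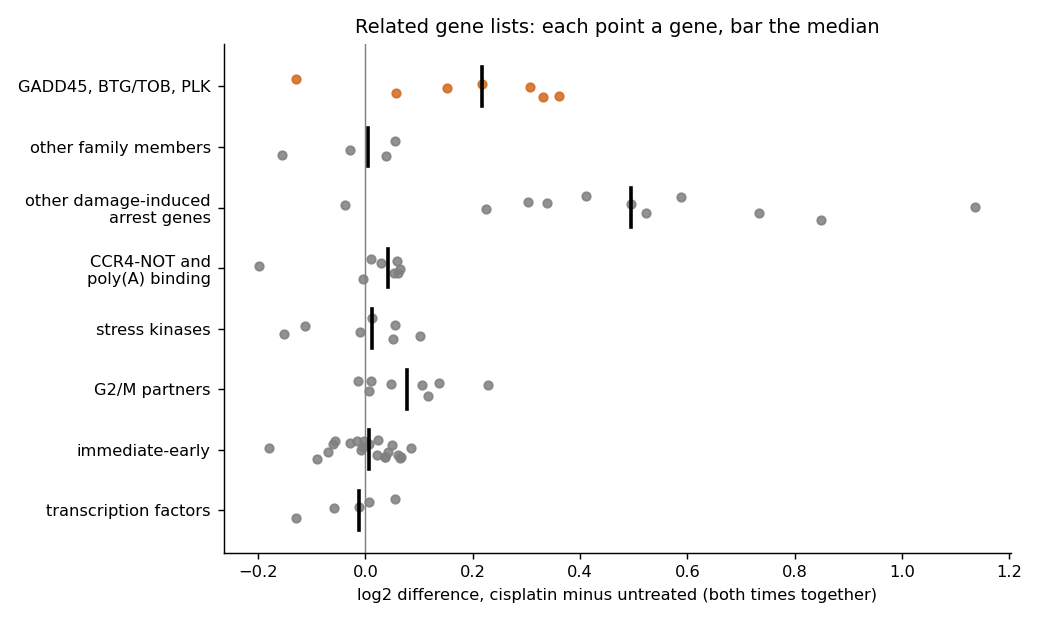
Log2 difference of cisplatin minus untreated cells over both times (horizontal axis) for each measured gene (points) of 8 lists (rows), with the median as a bar. The 7 members (orange) have a median of 0.22, between the other damage-induced arrest genes (0.49) and the remaining lists, whose medians lie between -0.01 and 0.08.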

How the data were processed

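RNA of A549 cells was measured on 12 Affymetrix exon arrays. Expression Console and Power Tools (Affymetrix) were used by the authors, with RMA normalization, and the deposited values are log2 signals per transcript cluster, with genes left uncentred. No counts exist for arrays, so their number limits the precision. The genome build was not given in the sources used here.

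From these values, 14432 of 22011 clusters were paired with 1 symbol (2408 with several, 5171 not in the probe table of 16840), symbols were updated through RefSeq gene tables, and the brightest cluster per gene was kept (14232 genes). limma 3.58.1 in R 4.3.3 fitted treatment and time, and a model of 4 groups gave the effects at each time, their difference and the time contrasts, with Benjamini-Hochberg adjustment over all genes. One comparison of time over both treatments was added after seeing the data. Array groups came from the sample labels. Members and lists were chosen with earlier results of these data known. Named are the members, their relatives, up to 4 genes per list with the smallest p, CDKN1A and the 3 genes most like GADD45A, PLK2 and PLK3.

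Alternatives were leaving out each array, a replicate block, quantile normalization, median centring, array weights, trended robust variances, only genes above the median, averaged rows per gene, no time term and an unadjusted p under 0.005. Simulated data in which 200 genes differed were used to test the fits. One 24 h outlier was discarded according to the study's methods but is not named. All 12 arrays were used here. Apart from sign, the study's log fold-changes of PLK3 (0.3604), POLH (0.6136) and CYFIP2 (0.7552) equal the differences over all 12 arrays. The siRNA screen and RT-qPCR were not analysed here.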

Additional observations from a re-analysis of the deposited data

How the results depend on the processing

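Leaving out each array in turn left the count of members past an adjusted p of 0.05 at 0 to 0 in every comparison, and so did quantile normalization, median centring, trended robust variances, the mean of a gene's rows, genes above the median level (which leaves out GADD45G) and, for both times, no time term. Array weights called 1 member for cisplatin against untreated (PLK3), 1 at 48 h (PLK3), 1 for 48 h against 24 h in cisplatin-treated cells (GADD45A), 2 in untreated cells (GADD45A and PLK2) and 2 with both treatments together (GADD45A and PLK2), and an unadjusted p under 0.005 took 1 over both times (PLK3), 1 at 24 h (PLK3) and 1 for time with both treatments (BTG3). The cause was not tested. With the replicate number as a block, 0 members were called in any comparison, while the count over all genes was 17 in place of 4 for cisplatin and 87 in place of 19 for time. The numbers may pair the arrays in part. Of 18 same-numbered pairs 10 correlated above 0.1, and 9 of 12 arrays correlated best with their own number. Over all genes the 4 calls for cisplatin were 3 to 18 without 1 array, 12 with quantile normalization, 53 with array weights, 14 with robust variances, 17 above the median level, 13 without a time term and 64 at an unadjusted p under 0.005. At 24 h 1 call was 0 to 3 without 1 array, 2 with robust variances or above the median level, 11 with array weights and 37 at an unadjusted p under 0.005, and at 48 h 0 calls were 0 to 1 without 1 array, 1 with quantile normalization, robust variances or above the median level, 27 at an unadjusted p under 0.005 and 374 with array weights. With array weights and at an unadjusted p under 0.005, the 0 calls for the difference of effects were 1 and 5, the 0 for time with cisplatin 73 and 41, the 0 for time without it 529 and 103 (3 with robust variances, 2 above the median level), and the 19 for time over both 283 and 213 (9 with median centring, 30 with robust variances, 9 to 25 without 1 array).

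Signs turned only for differences near 0 or with wide intervals. With array weights these were GADD45B over both times (-0.0572), GADD45G at 48 h (-0.0567), the difference of effects of PLK2 (0.13), PLK3 (0.0482), BTG3 (-0.0916) and TOB1 (0.0460), and time in untreated cells for GADD45B (-0.00328) and PLK3 (-0.0919). Quantile normalization turned the difference of effects of TOB1 (0.0135) and time in untreated cells for GADD45B (-0.0409) and PLK3 (-0.0298), and median centring turned the last for GADD45B (-0.00760). Without 1 array, the ranges that crossed 0 were -0.0025 to 0.12 for GADD45B over both times, -0.23 to 0.0293 for GADD45B and -0.14 to 0.16 for GADD45G at 48 h, -0.20 to 0.0583 for PLK2 and -0.26 to 0.16 for TOB1 in the difference of effects, -0.18 to 0.0587 for GADD45G in time with cisplatin, -0.0666 to 0.19 for GADD45B and -0.0223 to 0.10 for PLK3 in time without it, and -0.0685 to 0.0141 for PLK3 in time over both. PLK3 over both times ranged from 0.32 to 0.39, with adjusted p between 0.126 and 0.596.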

Other observations

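Promoter windows of 8 of the 9 genes were given, from 250 bases before to 50 after a start in RefSeq (GRCh38.p14), and the letters of 5 motifs were searched in them on both strands. GADD45B held TATAA at -31, CCAAT at -82 and -45 and CACGTG at -168, and GADD45G held TATAA at -27, CCAAT at -79 and CACGTG at -143. BTG1 held TATAA at -33, CCAAT at -87 and TGACG at -192 and -110, and BTG2 held CCAAT at -76 and TGACG at -210, although neither gene has a value here. Of the windows at the 2 annotated starts of TOB1, one held CCAAT at -186 and TGACG at -87 and the other held no match, and the BTG3 window held none. Over all 35116 windows 34.6% held CCAAT and 7.26% CACGTG. None of the windows of the genes held a CArG box, which 1.29% of all windows held.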
